A study of Mus musculus with 4 samples.

Results

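The 5 genes described here encode receptors for free fatty acids and lipid amides: Ffar1, Ffar2, Ffar3, Ffar4 and Gpr119. They were found by symbol among the 55487 rows of the table, 1 row each, and all 5 were tested. The set was selected on earlier results of these same libraries, in which Ffar2 was lower and Gpr119 higher in the knockout, so the difference between genotypes is given for all 5 as a description and without a p-value. RNA came from islets of 30-week-old C57BL/6 mice, in 4 libraries, each from the pooled islets of 2 mice. The control group was Ggcx flox/flox (n = 2 pools) and the knockout group Ggcx flox/flox; Pdx1-Cre (n = 2 pools), and the floxed alleles were common to both. Pdx1 drives Cre in the whole pancreatic lineage rather than in beta cells alone. No Cre-carrying group with intact Ggcx was among these samples, so the transgene and the loss of Ggcx cannot be told apart.

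All 5 are G protein-coupled receptors of the cell surface that sense lipids. FFAR1 (GPR40) responds to long-chain fatty acids, couples mainly to Gq and amplifies glucose-stimulated insulin secretion from beta cells. FFAR2 (GPR43) and FFAR3 (GPR41) respond to short-chain fatty acids such as acetate, propionate and butyrate. FFAR3 couples to Gi, and FFAR2 to both Gi and Gq. FFAR4 (GPR120) responds to long-chain fatty acids and in mouse islets has been found mainly in delta cells, where it lowers somatostatin release. GPR119 responds to lipid amides such as oleoylethanolamide and to monoacylglycerols, couples to Gs and raises cAMP.

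The receptors lie in 3 places of the genome (GRCm38; gene models of GENCODE release M21). Ffar2 (ENSMUSG00000051314; chromosome 7, 30818348 to 30823775), Ffar3 (ENSMUSG00000019429; 30854330 to 30856178) and Ffar1 (ENSMUSG00000044453; 30857390 to 30861564) stand in a row on the minus strand of chromosome 7. Between Ffar3 and Ffar1 are 1211 bases, and between Ffar2 and Ffar3 30554 bases. Ffar4 (ENSMUSG00000054200) lies on the plus strand of chromosome 19, 38097071 to 38114263, and Gpr119 (ENSMUSG00000051209) on the minus strand of chromosome X, 48667979 to 48674478. Ffar2 has 6 annotated transcripts, Ffar3 2 and the others 1 each. No exon of the 5 genes overlaps an exon of another gene in these gene models (0 overlaps). The annotation behind the authors' counts was not given, so whether reads were mixed with those of a neighbour was not tested.

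The 250 bases upstream of a RefSeq start (GRCm38.p6) are shown for the receptor that was lower and for its neighbour Ffar3. They are also shown for the receptor that was higher. Each has an annotated start of its own, whose use in these islets was not tested. These windows were searched on both strands for an E-box (CACGTG), a cAMP response element (TGACGTCA), a GC box (GGGCGG) and TATAAA, and capitals mark the matches.
Ffar2, outermost of 4 starts, chr7:30823776-30824025, minus strand: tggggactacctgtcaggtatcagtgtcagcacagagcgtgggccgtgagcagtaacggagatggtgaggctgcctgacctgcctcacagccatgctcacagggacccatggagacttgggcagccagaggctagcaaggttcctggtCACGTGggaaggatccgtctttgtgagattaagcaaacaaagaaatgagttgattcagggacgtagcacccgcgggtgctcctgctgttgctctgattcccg
Ffar3, chr7:30856179-30856428, minus strand: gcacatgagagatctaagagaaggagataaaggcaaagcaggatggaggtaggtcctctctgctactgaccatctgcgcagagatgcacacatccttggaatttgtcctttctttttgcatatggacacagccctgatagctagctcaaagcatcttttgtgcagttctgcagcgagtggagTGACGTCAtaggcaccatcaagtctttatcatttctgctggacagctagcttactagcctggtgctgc
Gpr119, chrX:48674479-48674728, minus strand: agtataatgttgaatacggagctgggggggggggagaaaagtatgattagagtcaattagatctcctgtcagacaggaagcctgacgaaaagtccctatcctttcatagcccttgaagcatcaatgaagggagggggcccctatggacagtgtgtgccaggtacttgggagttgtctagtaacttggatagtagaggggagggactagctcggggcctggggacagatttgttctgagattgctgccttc

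The Ffar2 window held 1 E-box, beginning 102 bases before the start, a motif found in 6.02% of 32851 windows of the same length. The Ffar3 window held 1 cAMP response element, 68 bases before its start, found in 1.55% of windows. None of the 4 motifs was in the Gpr119 window. The remaining Ffar2 windows held a GC box or no match, and the Ffar4 window a GC box, which 32.7% of windows hold. The Ffar1 window lies partly inside the GENCODE exon and was left unprinted. CpG pairs numbered 9 in the Ffar2 window and 3 each in the Ffar3 and Gpr119 windows, against a median of 6 over all windows. The gene totals do not separate the starts of Ffar2, and a match describes letters only.

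The libraries held 47624630 to 51756221 reads assigned to genes. Values below are the authors' normalized read counts. Fold changes set the knockout over the control group on log2(value + 1), with standard errors from limma. Ggcx, the targeted gene, stood at 3971 and 3981 in controls and at 234.2 and 643.4 in knockouts (log2 fold change -3.35 ± 0.35, limma adjusted p = 0.0163). Without the mean-variance trend, with robust empirical Bayes or with no filter on low values, its adjusted p was 0.329, 0.294 and 0.217. Hormone genes marked the tissue as islet, with Ins2 at 6158564 to 6615636 and Gcg at 1096489 to 1552086. Of 16589 tested genes, 0.621% passed an adjusted p of 0.05, 0.247% higher and 0.374% lower. An unadjusted limma p under 0.05 was reached by 2336 of the 16589, against which such counts in the lists below are to be read. Higher genes were 39.8% of those called, or 50.9% when libraries shared an upper quartile.

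At that threshold 2 of the 5 receptors were called, Ffar2 lower and Gpr119 higher, and 3 were not. Because these receptors were chosen from that contrast, nothing is read from the count against 0.621% of all genes. For all 5 the values of the control pools and of the knockout pools did not overlap, which held for 45.0% of all tested genes.

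**Figure D1:**
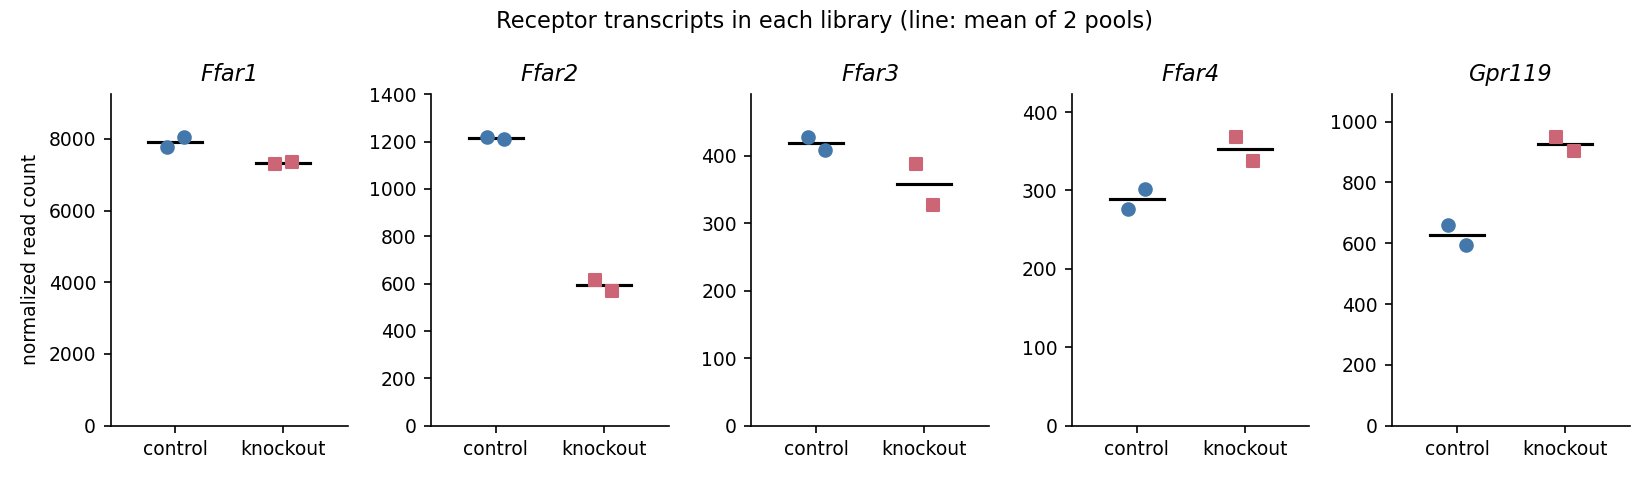
Normalized read counts of the 5 receptors in each library (points) with the mean of each group (line); y axes start at 0 and differ between panels. Ffar2 was at 48.8% of its control mean in knockouts and Gpr119 at 148%, while Ffar1, Ffar3 and Ffar4 lay between 85.4% and 122%.

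Among the receptors for short-chain fatty acids, Ffar2 stood at 1220 and 1210 in the control pools and at 615.1 and 570.5 in the knockout pools. Both knockout pools were far below both controls, with a wide gap between the groups. The mean went from 1215 ± 7.11 to 593 ± 31.5 (SD, n = 2 each), a log2 fold change of -1.04 ± 0.07. The control SD was 0.585% of the mean, below the counting error of 2.89% and 2.84% in the 2 libraries, so it understates the spread to be met in further pools. The knockout SD of 5.32% was near its counting error of 4.11% and 4.10%. The RNA was from whole islets, so fewer cells that carry a transcript and less of it per cell cannot be told apart for Ffar2 or any other receptor.

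Ffar3, the other receptor of this ligand class, stood at 428.1 and 409.2 in controls and at 388.2 and 327.0 in knockouts. Both knockout values were below both controls, but knockout replicate 1 was much closer to the controls than to knockout replicate 2. The mean went from 419 ± 13.4 to 358 ± 43.3 (SD, n = 2 each), a log2 fold change of -0.23 ± 0.11 that was not called. It ranged from -0.36 without knockout replicate 1 to -0.11 without knockout replicate 2.

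Ffar1, the receptor for long-chain fatty acids in beta cells, stood at 7763 and 8056 in controls and at 7289 and 7356 in knockouts. The groups were apart by a small margin, with a mean of 7910 ± 207 against 7322 ± 47.3 (SD, n = 2 each). Its log2 fold change was -0.11 ± 0.05 and was not called. Ffar1 was the most abundant of the 5 in every library.

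The genes of the chromosome 7 row did not keep a fixed proportion. For Ffar2 this restates its difference between the genotypes, on which the set was selected. Ffar2 reads per Ffar1 read numbered 0.1571 and 0.1502 in controls against 0.0844 and 0.0776 in knockouts, a ratio that does not depend on how libraries are scaled. The groups did not overlap. Ffar3, directly downstream of Ffar1, gave 0.0551 and 0.0508 reads per Ffar1 read in controls and 0.0533 and 0.0445 in knockouts, and here the groups overlapped. In other studies of mouse cells, Ffar3 has been described as carried on a transcript shared with Ffar1, but gene totals cannot show this. Ffar2 against Ffar3 went from 2.90 ± 0.08 to 1.66 ± 0.11 (SD, n = 2 each).

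Beyond the receptors, the protein-coding neighbours within 50 kb of Ffar1, Ffar2 or Ffar3 were near the floor. The B-cell gene Cd22 stood at 12.7 to 24.98 with overlapping groups (log2 fold change 0.38 ± 0.36, limma adjusted p = 0.706), and the epidermal gene Dmkn at 11.2 to 17.7 (0.20 ± 0.38, adjusted p = 0.868). Mag, a myelin gene, stood at 0.974 to 10.2 and was not tested, and Krtdap was 0 in all 4 libraries.

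Gpr119, the receptor for lipid amides, stood at 660.1 and 594.3 in controls and at 950.2 and 905.2 in knockouts. Both knockout pools were well above both controls. The mean went from 627 ± 46.5 to 928 ± 31.9 (SD, n = 2 each), a log2 fold change of 0.57 ± 0.08. Its spread was 7.42% of the mean in controls and 3.43% in knockouts, against counting errors of 3.25% to 4.05% in the 4 libraries. Gpr119 relative to Ffar1 was 0.0850 and 0.0738 in controls and 0.130 and 0.123 in knockouts, which restates the values above within each library.

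Gpr119 is X-linked, and the sex of the mice was not in the labels used here. Xist, made from the inactive X chromosome of female cells, stood at 0 to 2.04 in all libraries, and the Y-linked Ddx3y at 3919 to 4379, so the libraries did not differ in this respect. The 560 tested genes of chromosome X had a median log2 fold change of 0.02, beside 0.00 over all tested genes. Above 0 were 315 of the 560, beside 8310 of all 16589. Of the 560, 7 were called higher and 1 lower. Gpr119 is among the 7 and was selected for being higher, so it enters that count by selection. Of all 16589 tested genes, 41 (0.247%) were called higher and 62 (0.374%) lower. On either side of Gpr119 lie Slc25a14, a mitochondrial carrier gene, at 842 ± 28.7 and 906 ± 14.5, and Rbmx2, a splicing gene, at 373 ± 21.98 and 390 ± 12.7 in controls and knockouts (SD, n = 2 each). Neither was called (limma adjusted p = 0.558 and 0.831).

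Ffar4, the second receptor for long-chain fatty acids, stood at 275.9 and 302.0 in controls and at 368.4 and 337.5 in knockouts. The knockout pools were both above the controls, with the lowest knockout and the highest control close together. The mean went from 289 ± 18.5 to 353 ± 21.9 (SD, n = 2 each), a log2 fold change of 0.29 ± 0.11 that was not called. Ffar4 had the fewest reads of the 5 in the controls, 270 and 310, so counting error alone was 6.09% and 5.68% there, about the size of its spread.

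The nearest gene to Ffar4, 2365 bases downstream on the opposite strand, is Rbp4, which encodes retinol-binding protein and is a delta-cell marker in mouse islets. Rbp4 stood at 5220 and 5312 in controls and at 6385 and 6328 in knockouts (log2 fold change 0.27 ± 0.05, limma adjusted p = 0.0475). That call ended when control column 3 (adjusted p = 0.0571), knockout replicate 1 (0.0996) or knockout replicate 2 (0.0697) was left out, and also with a stricter or no filter, no trend or a common total. The ratio of Ffar4 to Rbp4 was 0.0528 and 0.0568 in controls and 0.0577 and 0.0533 in knockouts, with overlapping groups. The other neighbours, Cep55 and Pde6c, stood at 8.17 to 15.6.

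**Figure D2:**
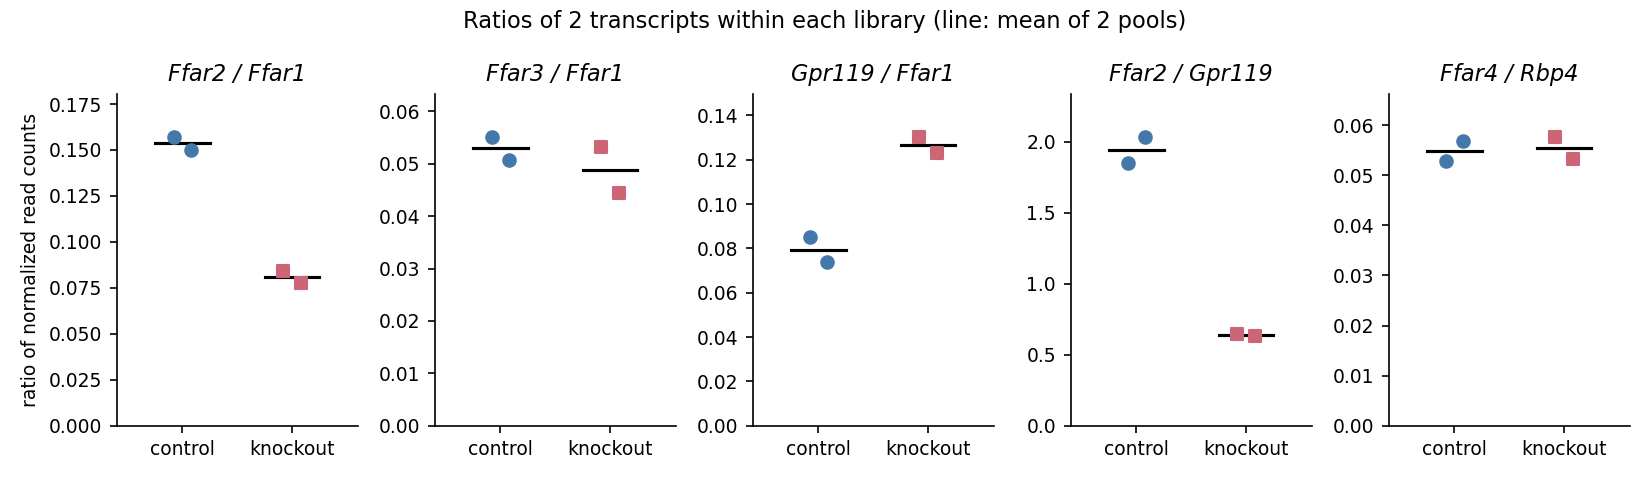
Ratios of normalized read counts of 2 transcripts within each library (points), with group means (lines); y axes start at 0. Ffar2 over Gpr119 was 1.85 and 2.04 in controls and 0.647 and 0.630 in knockouts, whereas Ffar3 over Ffar1 and Ffar4 over Rbp4 overlapped between the groups.

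The order of the receptors was compared per length, as RPKM, reads per kb of annotated exon scaled to library size. In controls Ffar1 led at 38.4 ± 1.13, above 94.1% of 14067 tested protein-coding genes. Ffar2 followed at 8.83 ± 0.02, Gpr119 at 5.60 ± 0.40, Ffar3 at 4.59 ± 0.13 and Ffar4 at 4.18 ± 0.28 (SD, n = 2 each). The last 2 were close, at 4.50 and 4.68 for Ffar3 and 3.98 and 4.38 for Ffar4. In knockouts the level was 35.4 ± 0.20 for Ffar1, 8.24 ± 0.29 for Gpr119, 5.08 ± 0.32 for Ffar4, 4.28 ± 0.23 for Ffar2 and 3.90 ± 0.48 for Ffar3 (SD, n = 2 each). There Ffar2 and Ffar3 overlapped, at 4.12 and 4.45 against 3.56 and 4.24.

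Ffar2 and Gpr119 thus exchanged places between the genotypes. This restates their opposite differences, on which the set was selected. Per length the Ffar2 level was 1.503 and 1.656 times that of Gpr119 in controls, and 0.526 and 0.513 times in knockouts. Per kb of coding length the exchange was seen as well, with RPKM-scaled levels of 24.9 for Ffar2 and 12.6 for Gpr119 in controls and 12.1 and 18.6 in knockouts. Ffar4 was then the lowest of the 5 in both groups, so its place above Ffar2 and Ffar3 in knockouts depended on the length used. Of the summed level of the 5 receptors, Ffar1 made up 61.1% to 63.3% in every library. The share of Ffar2 was 14.5% and 14.2% in controls and 7.71% and 7.35% in knockouts, and that of Gpr119 was 9.64% and 8.55%, then 14.7% and 14.3%.

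**Figure D3:**
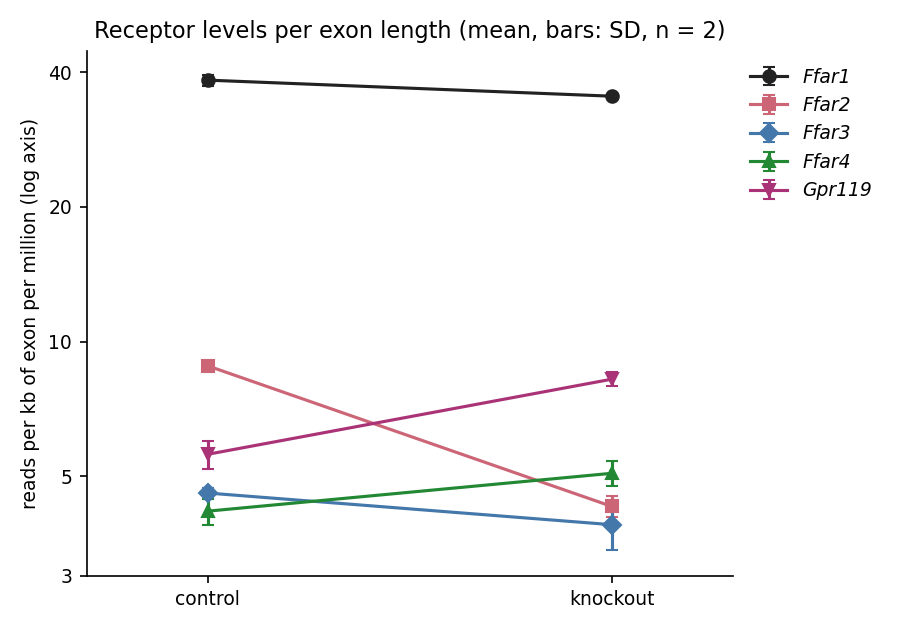
RPKM of each receptor (log axis), as group mean with SD over 2 pools. The lines of Ffar2 and Gpr119 cross between control and knockout, and Ffar1 stays on top in both.

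Which transcripts varied most like Ffar2 and Gpr119 was described by the distance between log2 deviations over the 4 libraries. Ranked were 11532 tested genes with a mean of at least 100. Genes with predicted, clone or digit-initial names were left out beforehand, so a nearer gene may be among those. Nearest to Ffar2 were Eppk1, which encodes the plakin epiplakin (distance 0.28, 59.1% of its control mean in knockouts), Scel (sciellin, 0.31, 56.7%), Try4 (a trypsinogen, 0.31, 60.0%), Celsr1 (a planar polarity cadherin, 0.31, 59.3%) and Rsph4a (a radial spoke protein of cilia, 0.33, 50.3%). Nearest to Gpr119 were Rcn3, an ER calcium-binding protein gene (0.04, 148%), Neurog3, the endocrine progenitor factor (0.06, 146%), Mcrip2 (0.08, 147%), Lmo1 (0.08, 151%) and Igdcc4 (0.09, 146%). The nearest genes lay closer to Gpr119 than to Ffar2. With 4 libraries in 2 groups, such a distance mostly compares the size of the difference.

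Cell type markers are given by list, whether or not they differed between the groups. All 8 tested acinar markers were below 0 in log2 fold change (median -0.73), with none past the limma threshold and none called by edgeR or DESeq2. An unadjusted limma p under 0.05 was reached by 7 of them, beside 2336 of all 16589 tested genes. Their summed value was 14558 and 15481 in controls and 7943 and 12014 in knockouts. Neutrophils are known to express Ffar2. Of their 6 markers 1 was tested, Csf3r, a cytokine receptor gene, at 40.9 and 33.1 in controls and at 42.7 and 22.1 in knockouts (log2 fold change -0.25), which overlapped and was not called. S100a8 and S100a9 stood at 0 to 2.92 and Ly6g at 0 in all libraries, and the list summed to 41.9 and 38.0 in controls and 44.8 and 27.8 in knockouts. The 7 macrophage markers summed to 4532 and 5019 in controls and 4784 and 4850 in knockouts, with none called (0 at an unadjusted p under 0.05, 0 by edgeR and 0 by DESeq2).

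The 5 alpha markers were all above 0 in log2 fold change (median 0.51). Their sum, mostly Gcg, was 1100397 and 1277621 in controls and 1295090 and 1557819 in knockouts. The PP markers Ppy and Pyy summed to 105625 and 150919 in controls and 151248 and 174244 in knockouts. In the delta list, whose cells are those described to carry Ffar4, the sum was 125052 and 126972 in controls and 130621 and 142657 in knockouts, and only Rbp4 of 5 was called. All 7 stellate markers were above 0 (median 0.81), with Dcn called. They summed to 1543 and 2048 in controls and 2443 and 3319 in knockouts. The 10 beta markers had a median of -0.01, and none was called by limma (1 at an unadjusted p under 0.05, 0 by edgeR and 0 by DESeq2). In the epsilon list Ghrl was called, at 85.2 ± 2.06 and 192 ± 26.3 (SD, n = 2 each; limma adjusted p = 0.0329). No duct, endothelial, lymphocyte or Schwann marker was called by limma, edgeR or DESeq2 (1, 1, 0 and 0 at an unadjusted p under 0.05). Of the 5 adipocyte markers 1 was tested, Fabp4, a fatty acid-binding protein gene that endothelial cells and macrophages also express. It stood at 279 and 181 in controls and at 338 and 417 in knockouts (log2 fold change 0.74 ± 0.19, limma adjusted p = 0.122), and DESeq2 called it. Adipoq, Plin1 and Lep were at 0 in all libraries. The part of acinar, neutrophil, adipocyte, alpha, PP, delta or stellate RNA in the receptor values was not tested. Scaled to a common level of the beta markers instead, the log2 fold change was -1.01 for Ffar2 and 0.59 for Gpr119. The ratio of Gpr119 to Ppy was 0.0065 and 0.0096 in controls and 0.0095 and 0.0077 in knockouts, with overlapping groups (log2 difference 0.12). Per 10000 Gcg reads, Gpr119 numbered 6.02 and 4.66 in controls and 6.12 and 7.02 in knockouts (log2 difference 0.31). These groups did not overlap, but the highest control and the lowest knockout were close together. Per 10000 Ins2 reads, Gpr119 numbered 1.02 and 0.965 in controls and 1.49 and 1.37 in knockouts, again without overlap (log2 difference 0.53).

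**Figure D4:**
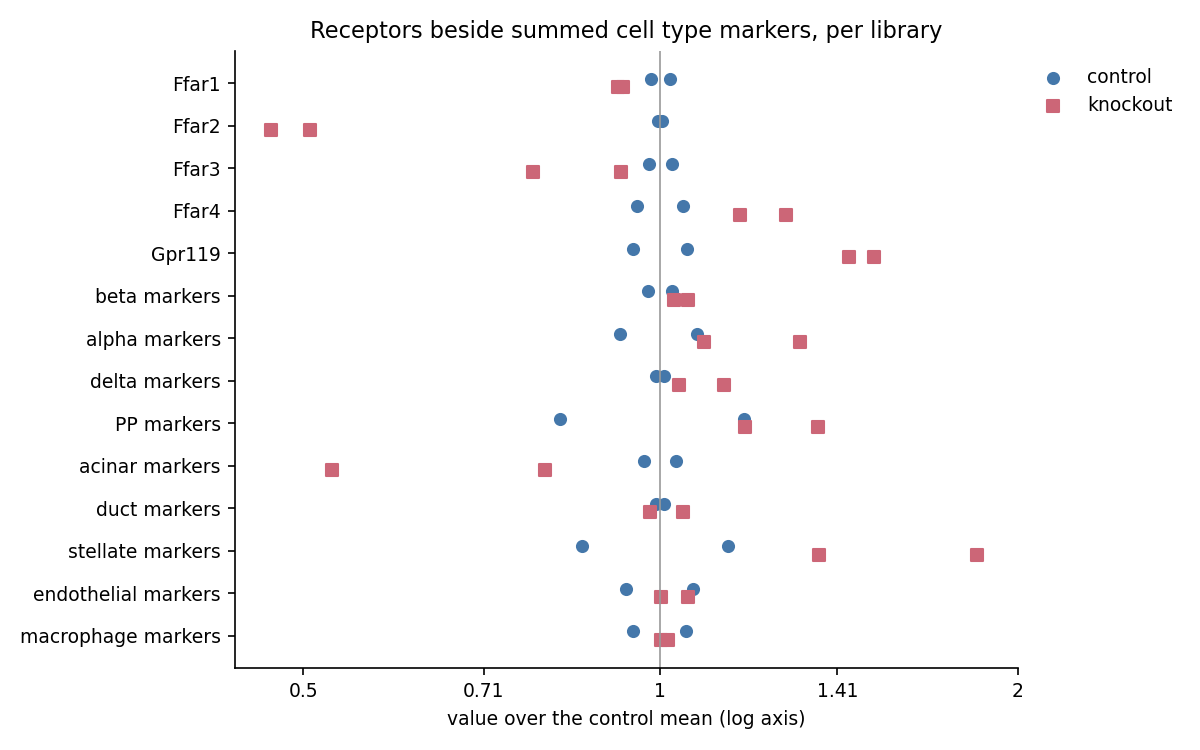
Values of the 5 receptors and summed values of 9 marker lists in each library, divided by the control mean (log axis; circles control, squares knockout). Acinar markers were lower and stellate markers higher in knockouts, and beta markers stayed near 1.

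Whether genes around these receptors differed was asked in 9 lists of signalling and lipid genes, 192 genes in all, of which 166 were tested. Hcar2 and Pde4b fell, 0 rose and 164 did not pass the test. The share called was 1.20%, beside 0.621% of all tested genes, and the median log2 fold change was 0.03 beside 0.00. An unadjusted limma p under 0.05 was reached by 30 of the 166, beside 2336 of all 16589 tested genes. Hcar2 (GPR109A), a Gi-coupled receptor for beta-hydroxybutyrate, niacin and, more weakly, butyrate, stood at 570.1 and 661.5 in controls and at 395.5 and 419.0 in knockouts. The groups were apart, and its log2 fold change was -0.59 ± 0.10 (limma adjusted p = 0.0450). The call of Hcar2 was lost with a stricter filter (limma adjusted p = 0.0526), no filter (0.217) or no trend (0.334). It was also lost without control column 3, where the log2 fold change was -0.48. Pde4b, a phosphodiesterase that breaks down cAMP, stood at 3899 and 4074 in controls and at 3243 and 3209 in knockouts. Its log2 fold change was -0.30 ± 0.05 (limma adjusted p = 0.0449). That call was lost with a stricter filter (limma adjusted p = 0.0526), no filter (0.217) or no trend (0.358). It was also lost on leaving out control column 3, knockout replicate 1 or knockout replicate 2 (log2 fold changes -0.27, -0.31 and -0.30).

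Among 26 tested lipid and metabolite receptors besides the 5, 18 log2 fold changes were above 0 and Hcar2 alone passed, with a median of 0.14. The most abundant others were S1pr1, for sphingosine 1-phosphate, at 1578 ± 41.3 and 1419 ± 108, and Lpar6, for lysophosphatidic acid, at 691 ± 112 and 724 ± 12.4 (SD, n = 2 each). Hcar1, the lactate receptor gene related to Hcar2, was at 99.0 ± 14.6 and 169 ± 23.9 (SD, n = 2 each; log2 fold change 0.77 ± 0.17, limma adjusted p = 0.0860), and is named here because its direction was opposite. The remaining 15 of 41 were too low to test, among them Gpr55 and Gpr35. In the list of incretin and other islet receptors none of 10 passed (5 at an unadjusted p under 0.05, 0 by edgeR and 1, Sstr2, by DESeq2), with Glp1r at 29601 ± 732 and 26658 ± 1400 (SD, n = 2 each) and the somatostatin receptor gene Sstr3 next in abundance (log2 fold change 0.12 ± 0.05).

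Downstream of the receptors, none of 27 G protein, arrestin and GRK genes passed in limma (5 at an unadjusted p under 0.05, 0 by edgeR and 0 by DESeq2). Gnas, the Gs subunit used by GPR119, stood at 75842 ± 1457 and 83535 ± 2010, and the gamma subunit gene Gng12 had a log2 fold change of -0.06 ± 0.06. Gnaq, a Gq subunit used by FFAR1, stood at 7150 ± 148 and 6968 ± 22.6 (SD, n = 2 each). Of 19 Gq effectors none passed (5 at an unadjusted p under 0.05, 0 by edgeR and 0 by DESeq2), and the 2 most abundant were the cation channel gene Trpm5 at -0.12 ± 0.10 and the protein kinase C gene Prkca at -0.10 ± 0.07 on the log2 scale. Among 24 Gs and Gi effectors Pde4b alone passed. No RGS gene of 12 passed (2 at an unadjusted p under 0.05, 0 by edgeR and 0 by DESeq2). The 2 most abundant of them, Rgs2 and Rgs5, had log2 fold changes of 0.27 ± 0.19 and 0.08 ± 0.06.

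For the supply of ligands, none of the 12 tested genes of lipid amide and monoacylglycerol metabolism passed (1 at an unadjusted p under 0.05, 0 by edgeR and 0 by DESeq2). Their log2 fold changes lay between -0.04 and 0.17. Napepld, which makes N-acylethanolamines, was at -0.04 ± 0.07, Faah, which breaks them down, at 0.08 ± 0.07, and Mgll, which cleaves monoacylglycerols, at 0.17 ± 0.10. The most abundant were Pam, the amidating enzyme, at 0.06 ± 0.06 and Gde1 at 0.09 ± 0.05. None of 23 genes of long-chain fatty acid release, uptake and activation passed (2 at an unadjusted p under 0.05, 0 by edgeR and 1, Fabp4, by DESeq2), led in abundance by the lipase Lpl at 0.08 ± 0.05 and Acsl4 at 0.01 ± 0.05. Of 13 tested genes for short-chain fatty acids and ketone bodies none passed either (1 at an unadjusted p under 0.05, 0 by edgeR and 0 by DESeq2), with Oxct1 at 0.09 ± 0.05 and Acat1 at 0.00 ± 0.05.

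**Figure D5:**
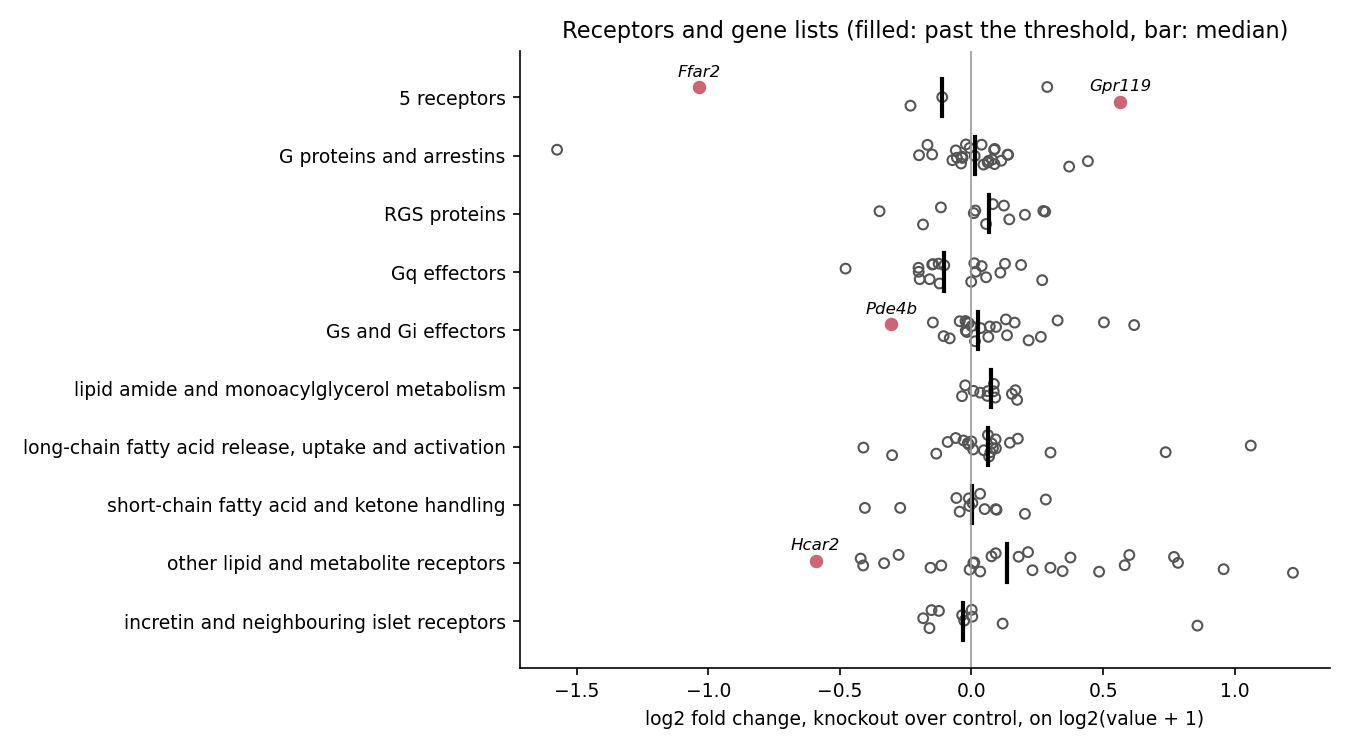
Log2 fold changes (knockout over control) of the 5 receptors and of the tested genes of 9 lists; each circle is a gene, filled circles passed an adjusted p of 0.05 and bars are medians. Only Pde4b and Hcar2 are filled among the 166 list genes, both to the left of 0.

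In the authors' deposited table, which gives control over knockout, the log2 fold change was 1.04 for Ffar2, -0.56 for Gpr119, 0.11 for Ffar1, 0.23 for Ffar3 and -0.29 for Ffar4. With the sign turned, these are within 0.01 of the values given above.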

How the data were processed

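Poly(A)-enriched islet RNA was sequenced, per the labels' protocols. Tools in the submitters' processing notes are STAR 2.5.1b, CASAVA 1.4, DESeq2 1.22.2 and featureCounts 1.6.0, and the build is GRCm38. Sources used here do not give the annotation or the strand setting. The authors deposited 1 signal value for each gene in each library, which per the file headers is a normalized read count. They also deposited a log2 fold change with a standard error, a score (stat) and p-values, raw and adjusted; of these, only the log2 fold changes were used. Whole reads were recovered from the step size of every column, for 100% of values to within 0.01 of a read. Control columns are numbered 2 and 3 while the labels number those samples 1 and 2, so they were matched to the group only. No other sample's column was present (0). Replicate pairs differed beyond counting noise (chi-square over degrees of freedom 10.1 and 9.85). Separate pools were counted as replicates.

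Genes reaching 10 in 2 or more libraries were tested with limma 3.58.1 (R 4.3.3) on log2(value + 1), two-sided and with a mean-variance trend, with Benjamini-Hochberg adjustment over 16589 genes at 0.05. The pseudocount understates the change of low genes. With 2 pools a group, the smallest exact permutation p is 0.333. On recovered reads, edgeR 4.0.16 called 57 genes higher and 71 lower, and DESeq2 1.42.0 120 and 202. The steps were tested on simulated data. The members, gene lists and markers were chosen with earlier results of these data known. Named in the text were the 5 receptors, Ggcx, list members past the threshold or else the 2 most abundant, and neighbours within 50 kb; a few other genes were named after their values were seen. The calls of single alpha markers are not reported here. Of the table's identifiers, 99.5% are in the annotation.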

Additional observations from a re-analysis of the deposited data

How the results depend on the processing

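The log2 fold changes of the 5 receptors kept their direction in all 15 alternatives, which were other pseudocounts, filters and scalings, no trend, robust empirical Bayes, scaling to the beta markers, each library left out, edgeR and DESeq2. Leaving out 1 library could not turn a direction, since the groups did not overlap. Ffar2 ranged from -1.09 to -0.98, Gpr119 from 0.49 to 0.64, Ffar1 from -0.14 to -0.08, Ffar3 from -0.36 to -0.11 and Ffar4 from 0.22 to 0.35. Neither Ffar2 nor Gpr119 was called without the trend, and Gpr119 was not called with no filter on low values. Both were chosen from this contrast, so nothing is read from how often they were called. Main counts were 41 higher, 62 lower and 2 list genes. With no filter on low values they were 1, 1 and 0 (2738 genes and 33 list genes at an unadjusted p under 0.05), with a filter at 50 they were 19, 32 and 0 (27 list genes unadjusted), and without the trend 0, 0 and 0 (1841 and 17 unadjusted). Robust empirical Bayes gave 85 and 124, and DESeq2 120, 202 and 4. Leaving out 1 library gave 58 to 207 higher, 49 to 241 lower and 2 to 9 list genes, the highest each time without control column 2, with the spread of the lone sample taken from the other group and the prior. Higher and lower calls were 101 and 148 on leaving out knockout replicate 2, 72 and 98 on leaving out knockout replicate 1, and 58 and 49 on leaving out control column 3. Ggcx stayed at -3.35 but lost its call with no filter, without the trend and with robust empirical Bayes, and ranged from -4.08 to -2.63 with 1 library left out. For Hcar2, Pde4b and Rbp4, alternatives added after seeing the data kept the direction in all 14 and ended the call in 4, 6 and 7, with adjusted p from 0.00438 to 0.334, 0.358 and 0.366. The causes were not tested. No paired analysis was possible because the control columns carry the numbers 2 and 3 and the knockout columns 1 and 2, so the groups share 1 number.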
